A study of Mus musculus with 59 samples.

Results

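The comparison was that of the brown adipose tissue (BAT) of BATKO mice and control (CTRL) mice fed a high-fat diet (HFD). Its mice were taken by their sample labels and by no measured value: 3 BATKO mice (numbers 12, 14 and 15) and 4 CTRL mice (numbers 7, 9, 10 and 11), which are 7 of the 13 mice of the diet experiment and 7 of the 59 libraries of the series. All were males of the C57BL/6J strain aged 8 to 12 weeks, and each mouse was sequenced as a library of its own from total RNA. The other 6 mice of the experiment, 2 BATKO and 4 CTRL, were on chow, and a separate experiment held 16 further mice of both genotypes, housed at 30 °C or in the cold at 4 °C. A last experiment gave thyroid hormone (TH) to wild-type (WT) and BATKO mice that had been treated with PTU, a drug that blocks the synthesis of TH. The labels give the genotype only as BATKO or CTRL. They do not describe the gene that was changed, the promoter or Cre that drove the change, or any treatment that both genotypes received. The label of the diet experiment also carries the mark 3.5d, which it does not explain.

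BAT burns lipid to make heat through UCP1, a protein that uncouples the mitochondrial inner membrane. TH acts on it through 2 nuclear receptors, TRα (encoded by Thra) and TRβ (encoded by Thrb), which bind DNA and activate transcription in the presence of T3. Brown adipocytes convert the prohormone T4 into T3 with the deiodinase encoded by Dio2, and noradrenaline, acting on adrenergic receptors, stimulates both Dio2 and Ucp1. Feeding on a HFD loads the tissue with lipid and is known to engage its sympathetic supply. The comparison asks which genes differ between BATKO and CTRL mice under this metabolic stress.

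One library went against the rest of its group, and is described first. Elmod2, which encodes an activator of ARF-family GTPases and is annotated next to Ucp1 on chromosome 8, was at 2233, 1582 and 1262 normalized counts (counts scaled for library size) in BATKO mice 12, 14 and 15 on HFD, and at 152, 158 and 153 in CTRL mice 7, 10 and 11. The mouse labelled CTRL 9 was at 1401, inside the range of the BATKO mice. BATKO and CTRL mice were also apart on chow, with 1585 to 1666 against 236 to 374, and in the temperature experiment, with 735 to 903 against 215 to 326 at 30 °C and 1619 to 2757 against 123 to 169 at 4 °C. In the TH experiment the genotypes overlapped after PTU, with 516 to 2791 in BATKO and 906 to 1525 in WT mice. At 24 h after TH they did not, with 1076 to 2409 in BATKO and 238 to 353 in WT mice. Across genes, on the log2 CPM scale, the mouse labelled CTRL 9 correlated most with BATKO mice 15 (0.973) and 14 (0.973), less with CTRL mice 7 (0.967), 11 (0.964) and 10 (0.956), and least with BATKO mouse 12 (0.955). CTRL mouse 10 also correlated most with a BATKO mouse, 14 (0.979). Genes are not independent replicates, and these values are a description. The mouse labelled CTRL 9 was kept under its label. The log2 difference of Elmod2 on HFD was 1.86 (standard error 0.62) with it and 3.46 without it.

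Skeletal muscle transcripts were uneven between mice and bear on the same library. The summed level of 12 muscle markers was 12.3, 106 and 1436 CPM (counts scaled to a common library size) in BATKO mice 12, 14 and 15, and 15.2, 667, 114 and 17.2 CPM in CTRL mice 7, 9, 10 and 11. All 12 marker genes were detected in both groups, and their median log2 difference between genotypes was 1.31, or 3.89 without the mouse labelled CTRL 9. The log2 difference of the summed level was 0.89, and -0.88 without BATKO mouse 15. Among the mice on HFD, BATKO mouse 15 and the mouse labelled CTRL 9 were thus the richest in muscle transcripts. On chow, CTRL mice 3 and 4 were above both, at 2721 and 1733 CPM. The part of muscle tissue in the other differences was not tested.

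**Figure D1:**
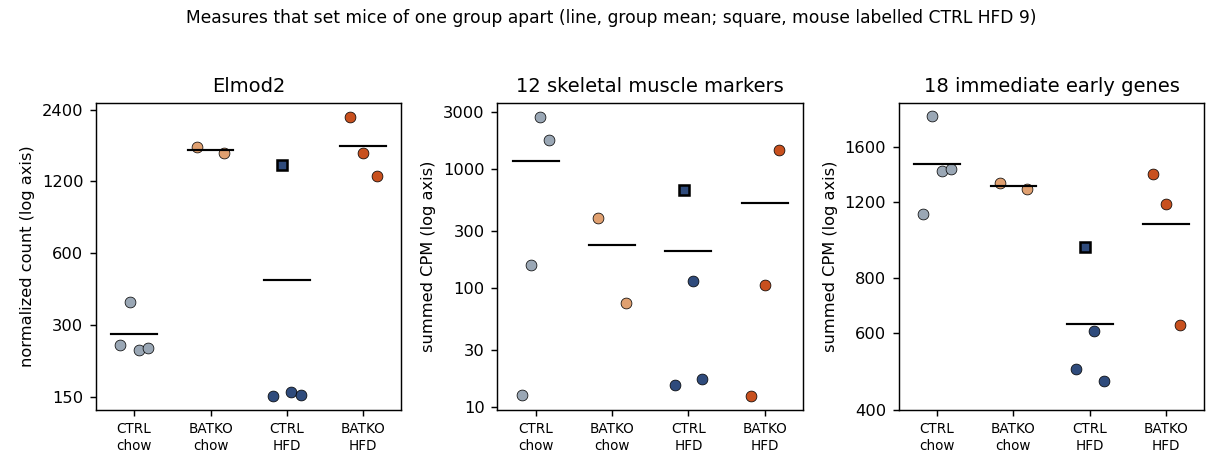
Each point is a mouse of the diet experiment and each line the mean of a group. Left, normalized counts of Elmod2; middle, summed CPM of 12 skeletal muscle markers; right, summed CPM of 18 immediate early genes; all on log axes. The square is the mouse labelled CTRL HFD 9, which at 1401 normalized counts of Elmod2 sits among the BATKO mice.

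Total gene counts in the 7 mice ran from 7612059 to 11533900, of which genes of the mitochondrial genome took 42.8% to 51.8%. The 11 brown adipocyte markers, Ucp1 and Cidea among them, were all above the limit for testing, which matches the labelled tissue, and their sum was 11006 to 11276 CPM in BATKO and 9030 to 11952 CPM in CTRL mice. Over the cell type lists, the lowest p of the exact permutation test over mice (two-sided, 9 lists) was 0.2, for white adipocyte markers, and its adjusted value was 0.735. With 3 mice against 4 this test has only 35 splits of the mice, which limits how low its p can go. Of single markers, 3 of the 6 tested white adipocyte markers were higher in BATKO mice at an unadjusted p under 0.05 (50%, against 2.67% of all genes), and 0 without the mouse labelled CTRL 9. The neuronal genes Th, Dbh and Snap25 and the precursor marker Tcf21 were at 0 in all 7 mice, and Cd79a of B cells and Hoxc9 of white fat at 0 in the BATKO mice. In whole tissue, fewer cells of a type and less RNA per cell cannot be told apart. Nothing in the labels says whether mice of a group were littermates, and p-values measure the spread between these mice.

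Of 12932 genes with a mean normalized count above 10, none (0% of those tested) passed an adjusted p of 0.05 between BATKO and CTRL mice on HFD by edgeR (quasi-likelihood test, p-values adjusted after Benjamini and Hochberg). Before adjustment, 691 genes (5.34%) had a p under 0.05, 345 of them higher in BATKO mice (2.67%) and 346 lower (2.68%). The median log2 difference over all genes was -0.00068, a value that the scaling of the libraries holds near 0. DESeq2, run as an alternative on the same counts, called 9 genes (0.0697% of 12920). Of these, 5 were higher in BATKO mice, among them Gja1, Ccn2, B3galt2 and Spry4, and Thrb, Rhou, Id2 and Mycl were the 4 lower. These genes, and others given below without an adjusted p past the threshold, were picked after their values were seen, or stand in lists of pathway genes. Which genes passed depended on single mice. Without CTRL mouse 10, edgeR called 10 genes, among them Gja1, Mycl, Rhou, Spry4, Acot4 and Elovl3, and without the mouse labelled CTRL 9 it called 1, Elmod2 (0.00772% of 12960). The differences given here are therefore a description of these 7 animals.

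Gja1 had the lowest adjusted p of all genes. It encodes connexin 43, the main gap junction protein of many tissues, through which neighbouring brown adipocytes exchange small molecules. Its normalized counts were 1316, 1062 and 1236 in the BATKO mice, and 697, 659, 790 and 712 in the CTRL mice. The groups did not overlap, which was the case for 3.35% of genes in this direction and for 2.66% in the other. The log2 difference was 0.75 (standard error 0.11, edgeR adjusted p = 0.0919, DESeq2 adjusted p = 5.45e-06). On chow, the log2 difference was 0.04 (standard error 0.13), with mean counts of 762 in BATKO and 741 in CTRL mice. BATKO mice on HFD were therefore the group that stood apart for this gene.

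Ccn2 and Spry4 had another pattern over the 4 groups. Ccn2, a secreted matrix protein also known as connective tissue growth factor, was at 206, 151 and 222 in BATKO and at 80.3, 73.9, 94.3 and 88.3 in CTRL mice on HFD (log2 difference 1.19, standard error 0.22, edgeR adjusted p = 0.276). Spry4, a feedback inhibitor of growth factor signalling, was at 641, 512 and 364 against 173, 164, 355 and 174, so that CTRL mouse 10 came close to the lowest BATKO mouse. On chow, the mean counts in BATKO and CTRL mice were 216 and 186 for Ccn2, and 497 and 600 for Spry4. For both genes, the CTRL mice on HFD were the group with the low values, whereas BATKO mice on HFD had means near those on chow.

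B3galt2 and Rhou differed between genotypes on both diets before adjustment. B3galt2, a galactosyltransferase, was at 430, 555 and 378 in BATKO and at 199, 92.3, 220 and 238 in CTRL mice on HFD (log2 difference 1.28, standard error 0.26, edgeR adjusted p = 0.346), and its log2 difference on chow was 0.96 (standard error 0.30). Rhou, a small GTPase, was at 45.7, 58.2 and 43.1 in BATKO and at 135, 139, 75.8 and 112 in CTRL mice (log2 difference -1.22, standard error 0.21, edgeR adjusted p = 0.208), and its log2 difference on chow was -0.97 (standard error 0.24). Mycl, a transcription factor of the MYC family, was at 32.1, 35.1 and 31.4 against 96.8, 70.6, 41.8 and 151 on HFD. It was also lower on chow, with a log2 difference of -1.23 (standard error 0.37). The annotation places B3galt2 within Cdc73 on the opposite strand and Rhou over Gm20388 on the same strand. The strand setting of the counting is not given in the sources used here, so part of their reads could come from these partners. The same holds for other genes with overlaps, among them Thrb (Gm48321), Thra (Nr1d1), Ccn2 (Gm15270), Bmp8b (Ppie and Oxct2b) and Gpat3 (Gm42987). Further ones are Acot4 (Gm49366), Cpt1b (Gm44502), Fgf1 (Arhgap26) and Dpp4 (Gm13561).

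Id2, an inhibitor of helix-loop-helix transcription factors, was at 142, 210 and 151 in BATKO mice and at 316, 313, 308 and 439 in CTRL mice on HFD (log2 difference -1.03, standard error 0.21, edgeR adjusted p = 0.374). Its mean counts on chow were 184 and 211, so that here the CTRL mice on HFD were the group with the high values.

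**Figure D2:**
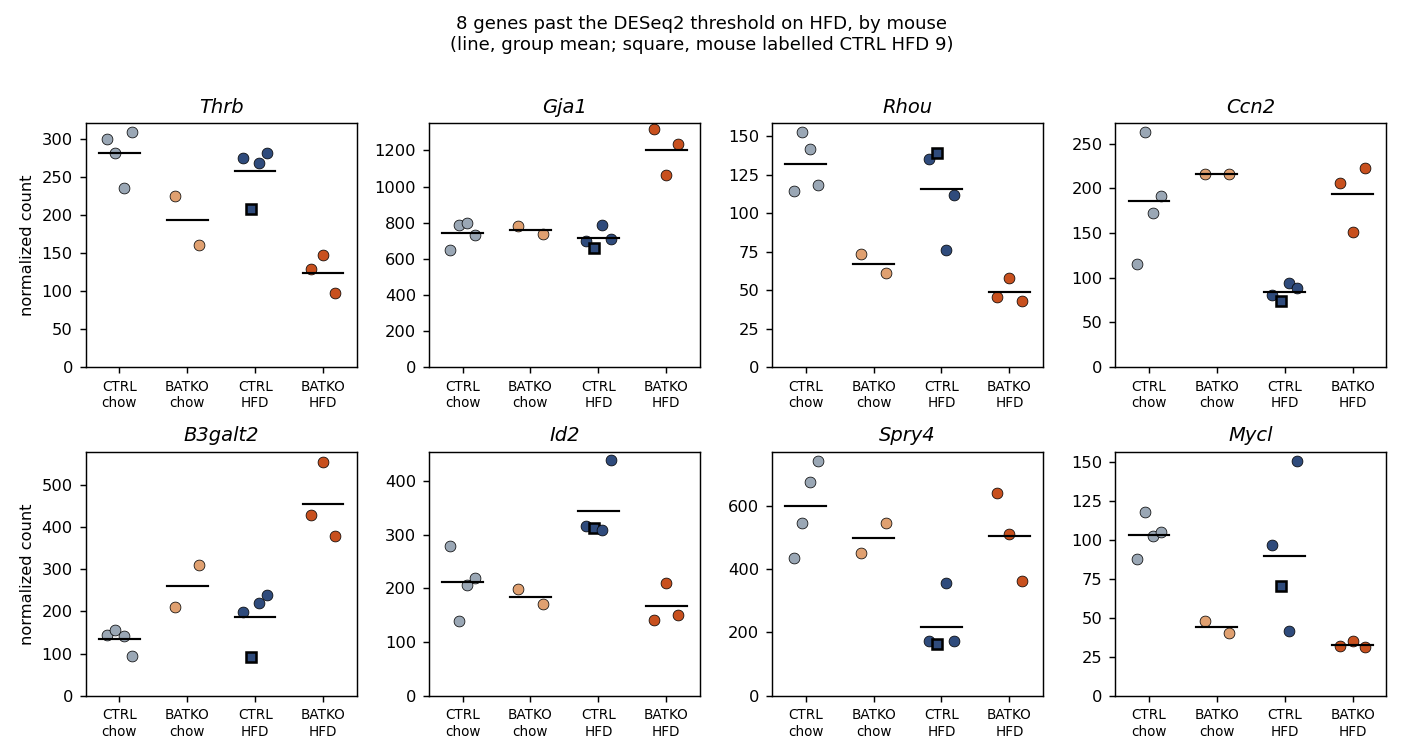
Normalized counts of 8 of the 9 genes past the threshold of DESeq2 on HFD in the 13 mice of the diet experiment, with the mean of each group as a line. The BATKO and CTRL mice on HFD do not overlap for any of the 8, which had been picked for this difference, and the square marks the mouse labelled CTRL HFD 9.

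Thrb was the gene with the next lowest adjusted p after Gja1. Its counts were 130, 147 and 97 in the BATKO mice and 275, 207, 268 and 282 in the CTRL mice, the mouse labelled CTRL 9 being the lowest control. The log2 difference was -1.05 (95% interval -1.41 to -0.68, standard error 0.17, edgeR adjusted p = 0.139, DESeq2 adjusted p = 0.000101), a 2.07-fold lower level. Without the mouse labelled CTRL 9 it was -1.14. BATKO mice had lower Thrb means in the other settings as well, with smaller log2 differences of -0.54 on chow (standard error 0.19), -0.45 at 30 °C (edgeR adjusted p = 0.542) and -0.22 at 4 °C (edgeR adjusted p = 0.558). The difference between HFD and chow was -0.50 (standard error 0.25), and no gene passed this test after adjustment. Since the genes of the BATKO change are not described in the labels, these counts cannot say whether Thrb is itself the changed gene.

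Thra, the other receptor gene, did not follow. Its counts were 96.3, 125 and 122 in BATKO mice and 96.8, 191, 97.2 and 91.6 in CTRL mice, with the mouse labelled CTRL 9 high. The log2 difference was -0.05 (95% interval -0.68 to 0.58) and became 0.27 without that mouse. Per kilobase of exon, Thrb stood at 34.9 ± 4.61 normalized counts (SD, n = 4) and Thra at 25.8 ± 10.4 (SD, n = 4) in the CTRL mice. In BATKO mice the order of the means was the opposite, with Thrb at 16.8 ± 3.42 (SD, n = 3) and Thra at 24.9 ± 3.47 (SD, n = 3). In CTRL mice this gap was smaller than the SD of Thra.

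The promoter of Thrb is shown because TR commonly bind the 6-base half-site AGGTCA, often as a direct repeat with 4 bases between, and because Thrb was the hormone-system gene with the lowest p. The promoter sequences are those of RefSeq on GRCm38.p6, from 250 bases before to 50 after a start site. Searched on both strands, the half-site was in 16.3% of all 32851 promoters, and the exact direct repeat in 5 of them (0.0152%). One of the 2 annotated promoters of Thrb, at chr14:17660710-17661009 on the plus strand, holds AGGTCA 184 bases before the start site. One of the 2 promoters of Slco4a1, at chr2:180460728-180461027 on the plus strand, holds it on the other strand, as TGACCT, 166 bases before the start site. The capitals mark the half-site. A match of letters is no measured binding site.
Thrb: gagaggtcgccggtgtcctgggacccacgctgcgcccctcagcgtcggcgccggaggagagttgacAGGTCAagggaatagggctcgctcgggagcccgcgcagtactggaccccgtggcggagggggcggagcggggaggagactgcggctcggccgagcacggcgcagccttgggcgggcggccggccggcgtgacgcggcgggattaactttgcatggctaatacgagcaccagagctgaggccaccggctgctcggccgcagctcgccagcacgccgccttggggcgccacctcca
Slco4a1: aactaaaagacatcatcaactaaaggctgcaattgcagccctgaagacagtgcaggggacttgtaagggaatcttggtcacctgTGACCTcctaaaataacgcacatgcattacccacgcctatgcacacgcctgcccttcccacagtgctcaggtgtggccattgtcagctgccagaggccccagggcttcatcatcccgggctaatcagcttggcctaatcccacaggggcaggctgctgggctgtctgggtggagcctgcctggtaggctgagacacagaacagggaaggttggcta

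Of the 19 genes listed for TH receptors, transport and deiodination, 15 could be tested. Of these, 2 were higher (13.3%, against 2.67% of all genes) and 2 lower (13.3%, against 2.68%) in BATKO mice on HFD at an unadjusted p under 0.05, none of the 15 passed after adjustment with edgeR, and their median log2 difference was -0.02. Slco4a1, an organic anion transporter that carries TH, was at 16.0, 14.9 and 9.80 in BATKO mice and at 34.1, 30.4, 37.9 and 35.7 in CTRL mice, with no overlap. The log2 difference was -1.34 (standard error 0.36), and it was -1.56 on chow (standard error 0.42). At 4 °C, in other mice, Slco4a1 was lower in BATKO by edgeR (log2 difference -1.77, adjusted p = 0.0279).

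Dio2 was higher in BATKO mice on average, with a large spread. Its counts were 7548, 1827 and 2329 in BATKO and 905, 1263, 2968 and 442 in CTRL mice, so that the groups overlapped and BATKO mouse 12 alone was above all CTRL mice. The log2 difference of 1.48 had a 95% interval from 0.09 to 2.88 and ranged from 0.57 to 2.17 when each mouse was left out in turn. It was lowest without BATKO mouse 12. Slc16a10, another TH transporter, was at 367, 377 and 381 in BATKO and at 239, 196, 371 and 274 in CTRL mice (log2 difference 0.47, standard error 0.17).

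A list of 14 genes known to respond to TH was drawn on next, of which 13 were tested. Of these, 5 were lower (38.5%, against 2.68% of all genes) and 1 higher (7.69%, against 2.67%) at an unadjusted p under 0.05, the median log2 difference was -0.31, and none passed after adjustment. Without the mouse labelled CTRL 9, the counts were 4 lower and 0 higher, against 2.08% and 2.31% of all genes in that fit, and the median -0.09. Slco4a1 was one of the lower genes. Gpd2, the mitochondrial glycerol phosphate dehydrogenase, was at 5072, 5061 and 4402 in BATKO and at 5914, 7156, 5760 and 6135 in CTRL mice (log2 difference -0.37, standard error 0.13). Stat5a, a transcription factor downstream of cytokines, had a log2 difference of -0.61 (standard error 0.22), and Thrsp, a regulator of lipogenesis also called Spot 14, of -0.41 (standard error 0.15). Klf9, a transcription factor induced by nuclear receptors, was at -0.32 (standard error 0.14), and at -0.25 without the mouse labelled CTRL 9, where its unadjusted p was no longer under 0.05. Hr, encoding the Hairless corepressor, had a log2 difference of -0.31 with a 95% interval from -1.28 to 0.65, and of -0.065 without the mouse labelled CTRL 9. Trp53inp2 was the gene in the other direction, at 0.41 (standard error 0.16), and Desi1 was at 0.39 (standard error 0.22), or 0.083 without BATKO mouse 15.

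**Figure D3:**
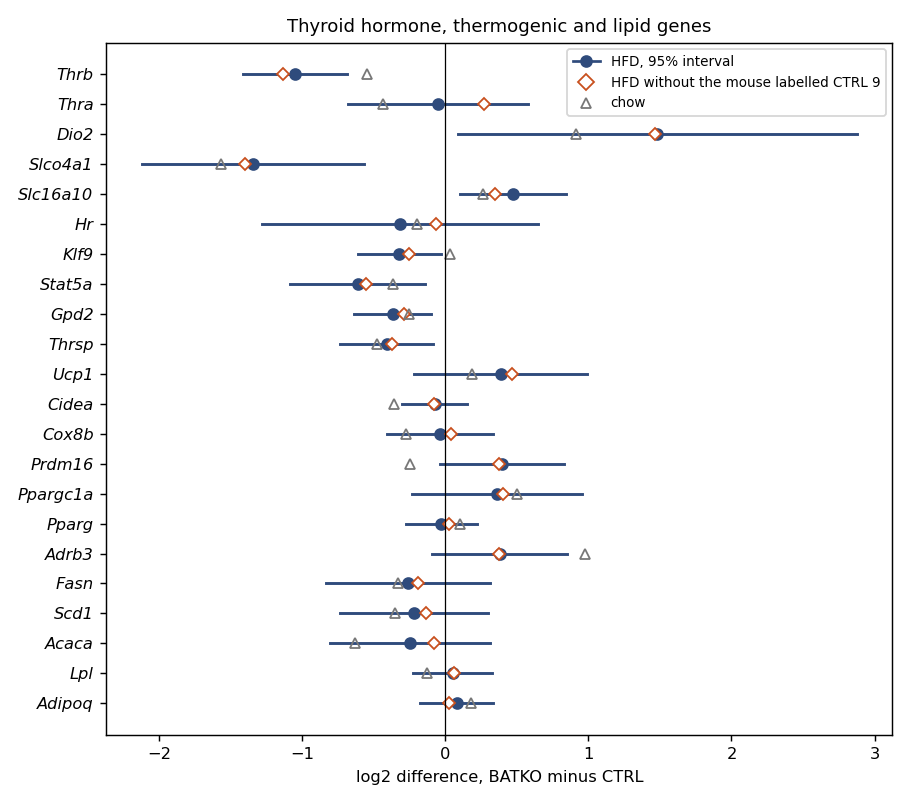
Log2 differences between BATKO and CTRL mice, with the 95% interval of the edgeR fit on HFD as a bar. Diamonds give the value without the mouse labelled CTRL 9 and triangles that on chow. The bars of Thrb and Slco4a1 lie below 0 and that of Dio2 above 0, before any adjustment, while those of Ucp1, Cidea and Fasn cross it.

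Genes that answer TH in this tissue could be defined in mice that share no animal with the diet experiment. In the WT mice, 4252 of 13003 genes (32.7%) passed the threshold 24 h after TH, of which 155 were raised at least 4-fold (1.19%) and 81 lowered at least 4-fold (0.623%). Of the 155 raised genes, 102 passed the limit on the mean count in the diet experiment. In BATKO mice on HFD, 15 of the 102 were lower at an unadjusted p under 0.05 (14.7%, against 2.68% of all genes) and 0 were higher (against 2.67%). Their median log2 difference was -0.25, with 75 below 0 and 27 above. Of the 81 lowered genes, 60 could be tested. Here 12 were higher (20%, against 2.67% of all genes) and 0 lower, and the median was 0.24, with 45 above 0 and 15 below. In both lists, the members with a low p lay in the direction opposite to the effect of TH. No gene of either list passed after adjustment with edgeR and the lists as a whole were not tested. The filter kept genes by their mean over the 13 mice, whatever their group.

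Leaving out the mouse labelled CTRL 9 changed these numbers to 11 lower and 1 higher of 103 raised genes, with 2.08% and 2.31% of all genes, and to 12 higher and 0 lower of 60 lowered genes. The medians became -0.17 and 0.19. Without CTRL mouse 10, 25 raised genes were lower and 5 higher, and without BATKO mouse 12, 7 lowered genes were higher and 0 lower. Over all genes, 553 were higher and 588 lower at an unadjusted p under 0.05 in the first of these fits, and 216 and 226 in the second. With a 2-fold limit in place of 4-fold, 681 genes were raised (5.24%) and 488 lowered (3.75%) by TH. Of 578 raised genes tested on HFD, 51 were lower (8.82%, against 2.68% of all genes) and 9 higher (1.56%, against 2.67%). Of 429 lowered genes, 52 were higher (12.1%) and 7 lower. On chow, where 4.54% of all genes were higher and 3.38% lower before adjustment, 8 of the 102 raised genes were lower and 6 higher, and 7 of the 60 lowered genes were higher and 2 lower, with medians of -0.20 and 0.13.

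The genes raised by TH and lower in BATKO mice on HFD had varied roles. Bmp8b, which encodes a secreted protein that increases the response of BAT to noradrenaline, was at 16.0, 15.7 and 12.7 in BATKO and at 24.2, 27.2, 64.2 and 24.6 in CTRL mice (log2 difference -1.25, standard error 0.37, or -0.77 without CTRL mouse 10), and had risen after TH by 5.50 on the log2 scale. Slc40a1, the iron exporter ferroportin, was at 153, 248 and 152 against 223, 625, 318 and 361, with the mouse labelled CTRL 9 highest. Rbm38, an RNA-binding protein, was at 48.1, 49.2 and 57.8 against 126, 151, 61.3 and 67.0. Cacna1a, a calcium channel subunit, was at 90.1, 151 and 156 against 221, 259, 172 and 254, and Cenpa, the histone of centromeres, at 40.7, 76.8 and 63.7 against 83.6, 115, 165 and 97.2. For Bmp8b, Rbm38, Cacna1a and Cenpa every BATKO mouse was below every CTRL mouse. Fgf1, a fibroblast growth factor induced in adipose tissue by HFD, was at 267, 385 and 353 against 626, 628, 295 and 436, with overlap (log2 difference -0.56, standard error 0.24). Id2, described above, was raised by TH by 4.15 on the log2 scale.

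Among the genes lowered by TH and higher in BATKO mice, several belong to lipid storage. Gpat3, a glycerol phosphate acyltransferase of triglyceride synthesis, was at 453, 523 and 518 in BATKO and at 283, 314, 367 and 330 in CTRL mice (log2 difference 0.62, standard error 0.18), with no overlap. Cidec, a lipid droplet protein, was at 4682, 3257 and 3662 against 2711, 2756, 2914 and 3110, and Nabp1, a single-stranded DNA-binding protein, at 2655, 1915 and 1914 against 1193, 1148, 1603 and 1243. Arxes1 and Arxes2, adipocyte genes on the X chromosome, had log2 differences of 0.49 (standard error 0.12) and 0.31 (standard error 0.10). The Arxes genes are near-copies of each other, so reads could be split between them. Elovl3, an elongase of very long chain fatty acids typical of BAT, was at 70.4, 19.4 and 40.2 against 4.40, 4.35, 31.1 and 4.47, so that CTRL mouse 10 fell within the BATKO range. Its log2 difference was 1.88 (standard error 0.59) and passed the threshold without CTRL mouse 10 (3.23, edgeR adjusted p = 0.0319). B3galt2 and Elmod2 belong to the same list. Mycl was lowered by TH (log2 difference -1.74, adjusted p = 0.0444), although less than 4-fold, and was lower in BATKO mice, which is the opposite direction to that of the list.

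Of the 15 raised genes that were lower, 10 had a promoter in the RefSeq table (13 promoters), of which that of Slco4a1 printed above was the one with the half-site. Of the 12 lowered genes that were higher, 9 had one (10 promoters) and none of these 10 held the half-site.

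**Figure D4:**
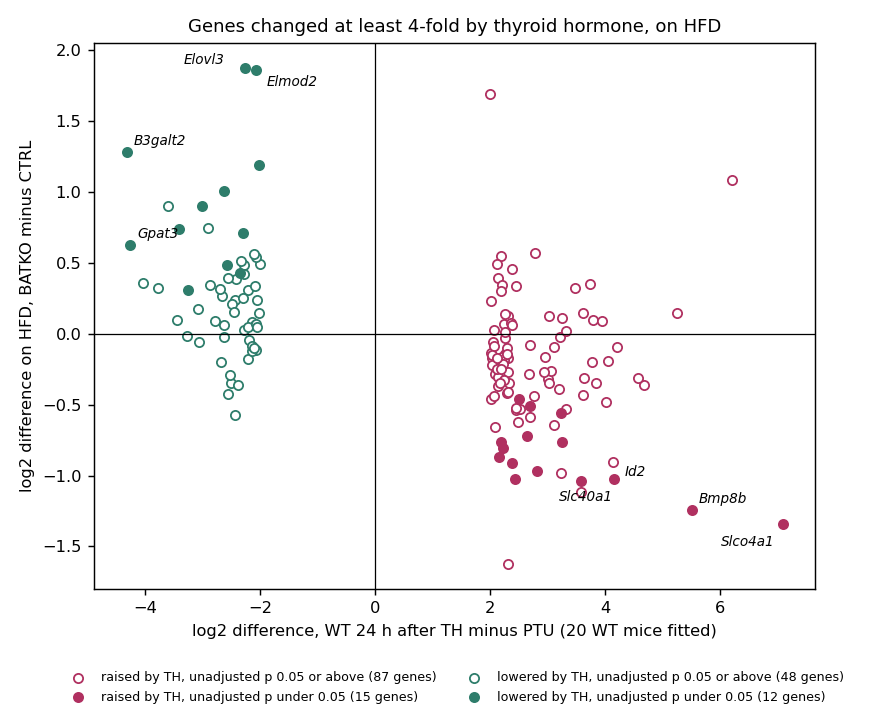
Each point is a gene changed at least 4-fold 24 h after TH in WT mice (102 raised, 60 lowered). The horizontal axis gives this change and the vertical axis the log2 difference between BATKO and CTRL mice on HFD. Filled points had an unadjusted p under 0.05 on HFD; the 15 filled points on the right are all below 0 and the 12 on the left all above.

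Of 21 genes of brown fat identity and thermogenesis, 1 was higher (Elovl3; 4.76%, against 2.67% of all genes) and 0 lower (against 2.68%) at an unadjusted p under 0.05, and the median log2 difference was -0.04. Ucp1 was at 34076, 23994 and 24813 in BATKO and at 16539, 24116, 27155 and 16703 in CTRL mice, with a log2 difference of 0.39 (95% interval -0.22 to 0.99, edgeR adjusted p = 0.884). Cidea, a lipid droplet protein and marker of brown adipocytes, was at 4313, 4354 and 3858 against 4378, 4325, 4424 and 4429 (log2 difference -0.07, 95% interval -0.30 to 0.15). The interval for Cox8b, a muscle and brown fat form of a cytochrome c oxidase subunit, was -0.41 to 0.34, and that for Pparg, the master regulator of adipocytes, -0.28 to 0.22. For Ppargc1a, a coactivator that drives the making of mitochondria, it was -0.23 to 0.96, and for Prdm16, a determinant of brown fat identity, -0.03 to 0.83. Of 73 nuclear genes for subunits of the respiratory chain, 0 had an unadjusted p under 0.05 in either direction (0%, against 5.34% of all genes) and the median was -0.09. Differences of the size of those of Thrb or Slco4a1 lie outside the intervals of Cidea, Cox8b and Pparg.

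Of 20 tested genes of de novo lipogenesis, 15 had a log2 difference below 0 and the median was -0.12, but Thrsp was the one with an unadjusted p under 0.05 (5%, against 2.68% of all genes). Fasn, the fatty acid synthase, was at 4819, 5047 and 6973 in BATKO and at 8821, 7761, 4343 and 5959 in CTRL mice (log2 difference -0.26, 95% interval -0.83 to 0.31). Scd1, the desaturase that makes oleate, was at 115640 to 194742 and 143044 to 231132 in the same groups. Acly and Acaca, which supply and commit acetyl-CoA to the pathway, had log2 differences of -0.25 and -0.25, and Lpl, which frees fatty acids from lipoproteins, of 0.05 (95% interval -0.22 to 0.33). On chow, 8 of the 20 lipogenic genes were lower at an unadjusted p under 0.05 and 0 higher (median -0.35), against 3.38% and 4.54% of all genes.

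Of 15 tested genes of triglyceride synthesis, 3 were higher (20%, against 2.67% of all genes) and 0 lower, with a median of 0.16. These were Gpat3, Dgat1 and Gk. Dgat1, which adds the last acyl chain, was at 1179, 539 and 563 in BATKO and at 382, 387, 594 and 480 in CTRL mice. Gk, the glycerol kinase that lets brown adipocytes reuse glycerol, was at 2911, 1588 and 1695 against 636, 937, 1986 and 891. In both genes CTRL mouse 10 was within the BATKO range. Of 25 tested genes of β-oxidation and ketogenesis, 3 were higher (12%, against 2.67% of all genes) and 0 lower, with a median of -0.02. Among them were Cpt1b, the carnitine palmitoyltransferase of muscle and brown fat (log2 difference 0.50, standard error 0.18), and Acot2, a mitochondrial thioesterase (0.51, standard error 0.19). Without BATKO mouse 12, the log2 difference of Acot2 was 0.29, that of Dgat1 was 0.26 in place of 0.72 and that of Gk 0.56 in place of 0.89.

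Other lipid genes went one way or the other. Plin3, a coat protein of small lipid droplets, was at 289, 430 and 300 in BATKO and at 496, 687, 438 and 599 in CTRL mice (log2 difference -0.70, standard error 0.20). Acot4, a peroxisomal thioesterase, was at 469, 316 and 456 against 145, 135, 374 and 206, and passed the threshold of edgeR without CTRL mouse 10 (log2 difference 1.35, adjusted p = 0.0223). Ffar4, a receptor for long-chain fatty acids, was at 460, 303 and 440 against 144, 224, 271 and 227, with no overlap (log2 difference 0.88, standard error 0.23). Of 21 tested genes of cholesterol synthesis, 2 were higher (9.52%, against 2.67% of all genes) and 1 lower (4.76%, against 2.68%). Hmgcs1, an early enzyme of the pathway, was at 1397, 1743 and 1406 against 1058, 970, 1252 and 1134, and Hsd17b7 had a log2 difference of 0.64 (standard error 0.17).

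**Figure D5:**
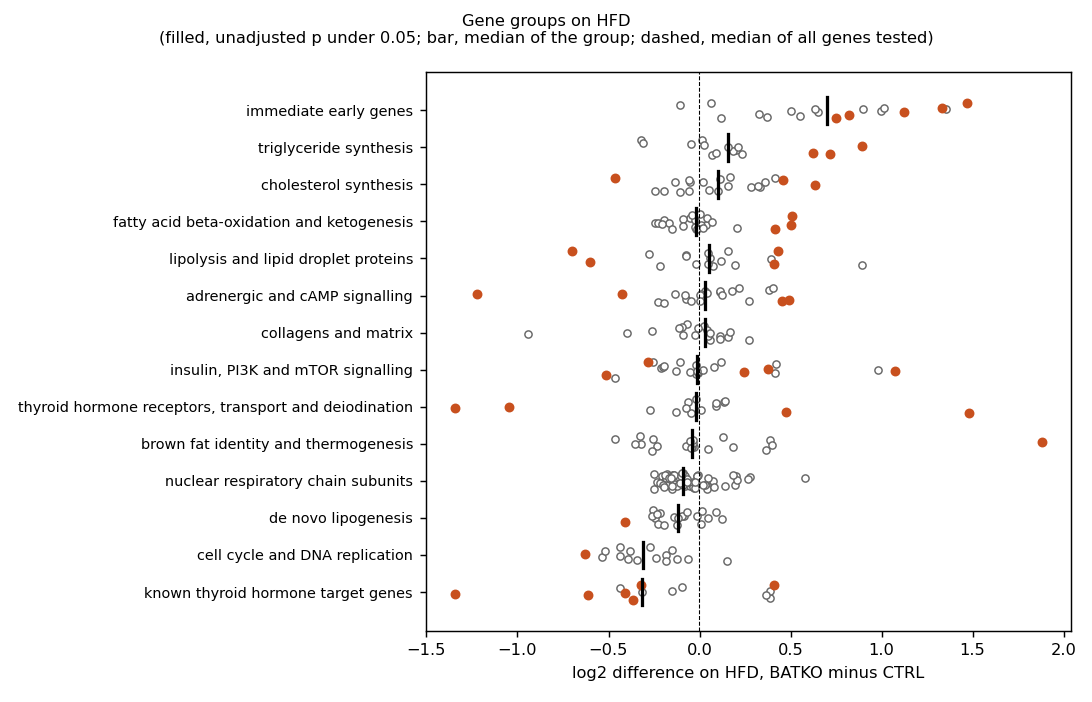
Log2 differences between BATKO and CTRL mice on HFD of the members of 14 gene lists that could be tested. Filled points had an unadjusted p under 0.05, the short bar is the median of the list and the dashed line that of all 12932 genes. The immediate early genes have the median farthest above the line (0.70) and the TH targets and cell cycle genes medians of -0.31 and -0.31.

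Of 23 tested genes of adrenergic and cAMP signalling, 2 were higher (8.7%, against 2.67% of all genes) and 2 lower (8.7%, against 2.68%), with a median of 0.03. Adrb3, the receptor of mature brown adipocytes, had a log2 difference of 0.38 on HFD (95% interval -0.09 to 0.85) and of 0.98 on chow. Per kilobase of exon on HFD, Adrb3 stood at 585 ± 133 normalized counts (SD, n = 3) in BATKO and 449 ± 96.5 (SD, n = 4) in CTRL mice. Adcy3, an adenylyl cyclase, had a log2 difference of 0.49 (standard error 0.18), and the cAMP phosphodiesterases Pde4a and Pde4b of -0.43 (standard error 0.15) and 0.45 (standard error 0.21).

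Immediate early genes, which are switched on within minutes by receptors and by stress, had the largest share of higher members among the pathway lists. Of 18 genes tested, 5 were higher (27.8%, against 2.67% of all genes) and 0 lower at an unadjusted p under 0.05, 17 had a log2 difference above 0, and the median was 0.70. Klf4 was at 710, 653 and 567 in BATKO and at 371, 286, 409 and 391 in CTRL mice (log2 difference 0.82, standard error 0.20), with no overlap. Nr4a1, an orphan nuclear receptor induced by cAMP, was at 2881, 1036 and 330 against 538, 541, 620 and 337, so that BATKO mouse 15 was below every CTRL mouse. Its log2 difference of 1.47 was 0.43 without BATKO mouse 12. Dusp1, a phosphatase of MAP kinases, was at 2203, 1782 and 1217 against 774, 1368, 1294 and 692. Nr4a2 and Ier3 were the other 2 higher members, with log2 differences of 1.33 (standard error 0.49) and 1.13 (standard error 0.42). Nr4a2 was at 638, 170 and 114 against 97.9, 103, 177 and 101, and its log2 difference was 0.25 without BATKO mouse 12.

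The mouse labelled CTRL 9 was high in several genes of this list. Fos was at 469, 972 and 313 in BATKO mice and at 124, 811, 145 and 98.3 in CTRL mice, Egr1 at 980, 1331 and 605 against 394, 1423, 254 and 413, and Fosb at 484, 735 and 213 against 35.2, 557, 61.3 and 98.3. The log2 difference was 0.99 for Fos, 0.65 for Egr1 and 1.35 for Fosb, and without the mouse labelled CTRL 9 it was 2.26, 1.46 and 2.89. Without BATKO mouse 14 it was 0.42, 0.37 and 0.91. In each of the 3 genes the mouse labelled CTRL 9 was in or above the BATKO range and the other CTRL mice below it. Without this mouse, 14 of the 18 genes were higher at an unadjusted p under 0.05, against 2.31% of all genes in that fit, and the median was 1.02. The summed level of the list was 1391, 1188 and 626 CPM in BATKO mice and 497, 947, 605 and 465 CPM in CTRL mice on HFD, and 1126 to 1883 CPM in the 6 mice on chow. On chow, 0 of the 18 genes were higher or lower before adjustment (median -0.30).

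Dusp1 is shown because it is an immediate early gene with the palindromic cAMP response element TGACGTCA in its promoter. The element was in 1.79% of all promoters and in 2 of the 19 promoters found for 15 of the 18 immediate early genes, those of Dusp1 and Btg2. The promoter of Dusp1 lies at chr17:26508423-26508722 on the minus strand and holds the element, in capitals, 143 bases before the start site. Dusp1 overlaps AC122252.1 over 1853 bases and AC122252.4 over 227 bases on the same strand, and Gm8225 and Ergic1 on the opposite strand, so part of its reads could come from these.
Dusp1: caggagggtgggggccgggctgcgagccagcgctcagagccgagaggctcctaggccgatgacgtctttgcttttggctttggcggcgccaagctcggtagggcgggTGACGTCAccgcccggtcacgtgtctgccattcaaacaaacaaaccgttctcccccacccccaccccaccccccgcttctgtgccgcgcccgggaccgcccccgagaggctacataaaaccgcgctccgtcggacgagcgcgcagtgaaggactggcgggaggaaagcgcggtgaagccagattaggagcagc

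Of 24 genes of insulin, PI3K and mTOR signalling, 3 were higher (12.5%, against 2.67% of all genes) and 2 lower (8.33%, against 2.68%). Without the mouse labelled CTRL 9, 1 was higher and 0 lower, against 2.31% and 2.08% of all genes. Irs2, the insulin receptor substrate that is also induced by cAMP, was at 4620, 1664 and 702 in BATKO and at 1084, 956, 1618 and 754 in CTRL mice, and its log2 difference of 1.08 was 0.10 without BATKO mouse 12. Foxo1, a transcription factor restrained by insulin, was at 1564, 1465 and 1444 against 2734, 2717, 1519 and 1542. Pik3cb, a catalytic subunit of PI3K, was at 111, 111 and 101 against 80.3, 82.6, 80.7 and 88.3, with no overlap (log2 difference 0.38, standard error 0.11). The adipokine genes Adipoq and Lep had log2 differences of 0.08 (95% interval -0.18 to 0.34) and -0.65 (95% interval -1.66 to 0.37).

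Matrix, macrophage and cell cycle genes are given on both diets side by side. On chow, 0 genes passed with edgeR (0%), 1024 had an unadjusted p under 0.05 (7.92%) and DESeq2 called 33 (0.255%), with 2 BATKO mice. Before adjustment, 4.54% of all genes were higher on chow and 2.67% on HFD. Of 20 collagen and matrix genes, 0 were higher or lower on HFD (median 0.03), whereas 15 were higher in BATKO on chow (median 0.82). Of 10 macrophage markers, 1 was higher on HFD (median 0.02) and 9 on chow (median 1.01), and of 16 tested genes of cell cycle and replication, 0 were higher and 1 lower on HFD (median -0.31) and 5 higher on chow (median 0.79). Of the 10 fibroblast and preadipocyte markers, 2 were higher on HFD at an unadjusted p under 0.05 (20%, against 2.67% of all genes) and 0 lower (median 0.09). Without the mouse labelled CTRL 9, 1 was higher, against 2.31% of all genes in that fit. The log2 difference of their summed level, with all mice on HFD, was -0.14. In this list, Pi16 and Dpp4, which mark early progenitors, had higher means in BATKO mice on HFD at low counts. Pi16 was at 35.8, 21.6 and 29.4 in BATKO and at 14.3, 5.43, 8.75 and 10.1 in CTRL mice, and Dpp4 at 14.8, 9.70 and 12.7 against 7.70, 5.43, 7.78 and 6.70.

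The test of the difference between diets itself gave 0 genes past the threshold by edgeR (0%) and 0 by DESeq2 (0%), with 740 at an unadjusted p under 0.05 (5.72%). So no gene named here was shown to have a genotype difference that depends on the diet. Spry4 and Gja1 had differences between diets of 1.49 (standard error 0.41) and 0.71 (standard error 0.17) on the log2 scale, Ccn2 of 0.97 (standard error 0.33) and Id2 of -0.83 (standard error 0.32).

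Other mice allowed the genes above to be looked at under cold. At 30 °C, 1 of 13267 genes passed the threshold of edgeR (0.00754%), and this was Elmod2 (log2 difference 1.63, adjusted p = 0.000664). At 4 °C, 286 genes passed (2.16%), 127 higher in BATKO (0.957%) and 159 lower (1.2%). Of the 127 higher genes, 125 were tested on HFD, where 7 were higher and 5 lower at an unadjusted p under 0.05 (median -0.04). Of the 159 lower genes, 144 were tested on HFD, where 6 were lower and 4 higher (median -0.03). The shares were 5.6% and 4.17% in the direction seen at 4 °C, and 4% and 2.78% in the opposite one. Over all genes, 2.67% were higher and 2.68% lower. Without the mouse labelled CTRL 9, 6 genes of the first list were higher and 8 lower. Of the second list, 6 were then lower and 2 higher, while 2.31% of all genes were higher and 2.08% lower. Slco4a1, Bmp8b and Fgf1 were lower in BATKO at 4 °C (log2 differences -1.77, -3.53 and -1.81), and B3galt2, Gpat3 and Elmod2 higher (2.90, 0.93 and 3.93), each past the threshold of edgeR. Hsd17b7, at 0.64 on HFD, went the other way and was lower in BATKO at 4 °C, also past the threshold. Gja1, Rhou, Ccn2, Spry4, Id2 and Mycl did not pass it at 4 °C or 30 °C.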

How the data were processed

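BAT RNA of the mice was extracted with Trizol, and libraries were made with the Lexogen SENSE total RNA kit and sequenced on a NextSeq 500. The authors mapped the reads to GRCm38 with Bowtie (Bowtie2 2.3.2.2 in the submitters' processing notes), removed alignments with a quality under 10 and counted reads per gene with htseq-count. The deposited values are these raw counts per gene, not normalized. The gene annotation and the strand setting are not given in the sources used here. The table of the diet experiment held 55341 genes, of which 55327 were matched to GENCODE.

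Groups were taken from the sample labels. Counts were tested with the quasi-likelihood test of edgeR 4.0.16 (R 4.3.3, limma 3.58.1) with TMM factors, on genes with a mean normalized count above 10, in 1 fit of all 13 diet mice, calling genes at a Benjamini-Hochberg adjusted p under 0.05 without a fold limit. The temperature and TH tables were fitted separately in the same way. Normalized counts are counts divided by TMM-scaled library sizes. The log2 CPM of the correlations and the summed CPM of immediate early genes use the same sizes. The summed CPM of cell type markers use the total count of each mouse, without TMM factors. Standard errors were taken from the log2 difference and the F statistic. DESeq2 1.42.0, which the submitters' notes also name, was the alternative, beside RLE factors, other filters, mitochondrial genes left out, only the groups compared, and each mouse left out. The scripts were tested on simulated data. Marker sums were compared by an exact permutation test over mice. Depth was 7612059 to 11533900 counts per mouse, so genes near the limit of 10 rest on few reads. For the 9 pairs of mice within a group on HFD, counts differed by a chi-square of 7.91 to 22.4 per degree of freedom, so no pair looked like repeats of 1 library.

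The rule for named genes took those past the threshold of edgeR on HFD or by diet (0 in both), the 2 most abundant members of each pathway list without a call (55 genes), the 6 genes Ucp1, Dio2, Thra, Thrb, Hr and Klf9, and the most abundant marker of each cell type (9 genes). It may leave genes out of the text. The genes called by DESeq2 and list members named for their difference were chosen after their values were seen. The mice follow from the labels, but the comparison itself, the genes described and the lists were chosen with earlier results of these data known. The TH response used only the WT mice. A few genes are not reported here by name.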

Additional observations from a re-analysis of the deposited data

Results flagged for a closer look

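Of 150 groups of 4 mice examined (1 gene in 1 group), 11 had a mouse whose gap to its nearest neighbour exceeded the 95% critical value of Dixon's test, as a share of the range of the group. In independent groups of normally distributed values, about 1 in 20 would be flagged, or 7.5 here. Many of these genes were picked after their values were seen, and they share the same mice. The 7.5 is therefore no strict expectation for them. The mouse labelled CTRL 9 on HFD was the distant one in 5 of the 11 and CTRL mouse 10 on HFD in 4.

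For the mouse labelled CTRL 9, the gap took 0.995 of the range for Elmod2 (1401 against 152 to 158 normalized counts in the other CTRL mice), 0.943 for Thra (191 against 91.6 to 97.2), 0.935 for Fos (811 against 98.3 to 145), 0.879 for Fosb (557 against 35.2 to 98.3) and 0.864 for Egr1 (1423 against 254 to 413). For CTRL mouse 10, it took 0.995 for Elovl3 (31.1 against 4.35 to 4.47), 0.946 for Spry4 (355 against 164 to 174), 0.933 for Nr4a2 (177 against 97.9 to 103) and 0.926 for Bmp8b (64.2 against 24.2 to 27.2). CTRL mouse 11 was high in Id2, with a gap of 0.943 of the range (439 against 308 to 316), and CTRL mouse 2 on chow in Elmod2, with 0.926 (374 against 236 to 247).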

How the results depend on the processing

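Among 75 genes examined singly, 1043 of 1117 comparisons with an alternative kept direction and side of the threshold, 59 passed it and 15, in 5 genes, changed sign. With DESeq2, 9 genes passed on HFD, 33 on chow, 8 at 30 °C and 649 at 4 °C. Without a filter on the mean count, 59 passed on HFD, 290 on chow and 216 by diet. Before adjustment, 1316 genes had a p under 0.05 on HFD in that fit, 621 higher and 695 lower. There, 28 TH-raised genes were lower and 2 higher, and 21 TH-lowered genes were higher and 1 lower. At a 2-fold limit, the counts opposite to TH were 51 and 52, with 9 and 7 the other way. At a mean above 50, 9 raised genes were lower and 0 higher, against 248 lower and 267 higher over all genes. With only the groups compared, 114 passed on chow and 61 at 4 °C. Alternatives chosen after seeing the data were DESeq2 without the mouse labelled CTRL 9, with 15 genes past the threshold and 454 before adjustment, and leaving out that mouse and BATKO mouse 15, with 1 and 438. In these, Thra was at 0.27 and 0.24, Cox8b at 0.033 and 0.12, and Pparg at 0.024 and 0.020.

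Leaving out each mouse gave 0 to 10 genes on HFD (442 to 1141 before adjustment), 53 to 565 at 4 °C, 1 to 1 at 30 °C, 0 to 0 on chow and by diet, and 3307 to 4370 after TH. The number of TH-raised genes that were lower ran from 10 to 25, and that of TH-lowered genes that were higher from 7 to 16. Log2 differences ran from -0.15 to 0.27 for Thra, -0.070 to 0.030 for Pparg, -0.17 to 0.17 for Lpl, -0.031 to 0.18 for Adipoq and -0.18 to 0.059 for Cox8b. For marker sums they ran from -0.88 to 2.55 in muscle, -0.27 to 0.23 in macrophages, -0.46 to 0.090 in lymphocytes and -0.24 to 0.047 in fibroblasts. Beyond the samples and genes left out, the cause was not tested. No paired analysis was possible because the BATKO and CTRL mice on HFD share no replicate numbers. With 3 mice against 4, and 2 BATKO mice on chow, the number of mice and, for low-count genes, the depth limit the precision.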
